A study of Drosophila melanogaster with 42 samples.

Results

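Hemocytes are the blood cells of Drosophila. Most are plasmatocytes, macrophage-like cells that circulate in the hemolymph, settle on larval tissues and engulf microbes and dying cells. They are not made by the wing imaginal disc, the larval pouch of epithelium that forms the adult wing and dorsal thorax, but they attach to discs and gather where a basement membrane is broken. The 8 genes described here mark these cells or act in them. They were taken by name, though with earlier results of these data known. Among them are the GATA factor serpent (srp), the surface protein Hemese (He), and the secreted proteins Hemolectin (Hml) and Peroxidasin (Pxn). The others are the phagocytosis and scavenger receptors NimC1, eater, Sr-CI and croquemort (crq). All 8 symbols were found among the 17208 genes of the table. Each was read in all 42 libraries and passed the filter on low counts in every fit.

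RNA was sequenced from wing discs of third-instar larvae with deletions in fat (ft), which encodes a giant cadherin acting upstream of the Hippo growth pathway and of planar cell polarity. On the NovaSeq X Plus sequencer were Fd5-5 (n = 2), delta HpoC (n = 5), delta HpoN+PH (n = 4), delta PCP (n = 5) and delta D (n = 3), with a wild type (WT, n = 2). On the NovaSeq 6000 were delta A, delta B and delta E (n = 4 each) and delta C and delta F (n = 3 each), with their own WT (n = 3). The library names of both WT groups hold w1118.csvd111. The labels do not say what Fd5-5 stands for, while the series names null mutants and mutants of conserved regions and functional domains of the intracellular part of Fat. They give neither the number of discs or larvae behind a library nor their sex or exact age. Each mutant was set against the WT of its own sequencer, since no mutant was on both. Nothing says that replicates came from separate crosses, so p-values measure only the spread between these libraries, which may be technical.

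Libraries held between 19538216 and 48392408 counts. The gene ft was at 220 to 767 CPM (counts scaled to a common library size with TMM factors) in the 37 mutant libraries and at 328 to 677 CPM in the 5 WT libraries, and a count per gene does not show which region of ft is missing. All 8 epithelial disc markers examined were present, with a summed level of 1973 to 4217 CPM. Ribosomal RNA genes took at least 5.11% of counts in 21 libraries and at most 1.68% in the other 21. All libraries of delta A, delta C, delta F and WT on the X Plus lay above 3%, and all of Fd5-5, delta D and WT on the 6000 lay below it. The other 5 labels held both kinds: 3 of 5 HpoC, 1 of 4 HpoN+PH, 1 of 5 PCP, 3 of 4 delta B and 1 of 4 delta E libraries lay above. For delta A, delta C, delta F, Fd5-5 and delta D, the label and this difference from WT cannot be told apart. A set of 8 libraries were nearer to another label than to their own over all genes and are called out of place below: HpoC 1 and 2, HpoN+PH 1, PCP 1, 2 and 5, delta B 4 and delta E 4. By the same measure 8 more libraries, of HpoC, delta B and delta E, were slightly nearer to another label.

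The hemocyte genes were weakly expressed, with crq as the exception. Per kilobase of the longest annotated transcript, the median level over 42 libraries was 0.793 CPM for srp, 0.813 for Hml, 0.824 for NimC1, 1.34 for He, 1.59 for Sr-CI, 1.996 for eater and 2.54 for Pxn. At 19.5 CPM per kilobase, crq stood above 64.4% of 11212 genes with a known length, and the other 7 stood above 29.5% to 37.6% of them. The spread between libraries was wide for all but crq. From the lowest to the highest library, the CPM differed 130-fold for He, 68.3-fold for Hml, 61.8-fold for srp, 35.1-fold for Pxn, 34.1-fold for NimC1, 27.6-fold for eater, 12.8-fold for Sr-CI and 3.84-fold for crq. The library PCP 3 was the highest of all 42 for Hml, NimC1, Sr-CI, Pxn, srp and eater. Delta F had the lowest group mean for Hml, NimC1, Sr-CI, Pxn and eater.

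On genome release 6, NimC1 (FBgn0259896, chromosome 2L, 13973158 to 13976769) and He (FBgn0028430, chromosome 2L, 13972096 to 13972947) are neighbours on the minus strand, inside the Nimrod cluster that runs from NimA to NimC4. The last 78 exon bases of He overlap NimB5 on the other strand. Sr-CI (FBgn0014033, 4121702 to 4124153) and crq (FBgn0015924, 448254 to 453024) are also on chromosome 2L. Hml (FBgn0029167, 13846054 to 13860001) and Pxn (FBgn0011828, 2601455 to 2630064) are on chromosome 3L, and srp (FBgn0003507, 15986152 to 16004085) and eater (FBgn0243514, 27095867 to 27099679) on chromosome 3R. Of crq, 448 exon bases overlap expanded (ex), a Hippo pathway gene on the other strand that had 2970 to 59385 counts where crq had 436 to 2757. Pxn shares 82 exon bases with CG16986 on the other strand, and srp shares 938 with the noncoding lncRNA:CR44133 on its own strand. Whether the counting used strand is not given in the sources used here, so reads of crq, He, Pxn and srp at these overlaps cannot be told from those of their neighbours.

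Of the 10 mutants delta F had the highest number of calls among the 8 genes, 5 of 14, with falls of Hml, NimC1, Sr-CI, Pxn and eater. These 5 of 8 genes passed the threshold (adjusted p below 0.05, edgeR quasi-likelihood test over all genes), in a comparison where 56.7% of 10338 genes passed and 28.5% passed as lower. The median log2 fold change was −2.44 over the 8 genes and −0.03 over all genes tested. Of the 8 genes, 7 had ranges in delta F that did not overlap those of WT, 6 of them lower. How many of all genes had such ranges was not counted, so the 7 cannot be called particular to the members. The other 4 mutants of the 6000 gave fewer calls, in both directions. In delta B 2 genes fell, Hml and Sr-CI, where 32.2% of genes passed and 12.8% passed as lower. In delta C 2 genes rose, He and crq, and Hml fell, where 65.8% passed, 33.8% as higher and 32.0% as lower. In delta A 2 genes rose, He and crq, where 58.4% passed and 30.4% as higher. None passed in delta E, where 5.13% of genes passed by edgeR. There 2 had an unadjusted p under 0.05, and 1 passed by DESeq2. In delta A, delta B and delta C the share of the 8 genes that passed was below that of all genes. In delta F it was close to that of all genes, and above it for falls alone. All 5 mutants share the same 3 WT libraries.

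On the X Plus the gene that stood out was srp, which was higher than WT in every mutant and passed the threshold in PCP. That was the single call among the 8 genes in PCP, where 3.61% of 10775 genes passed and 3.53% as higher, and their median log2 fold change was 1.18 against 0.01 over all genes. In delta D crq fell, 1 of 8, where 26.5% of genes passed and 15.3% as lower. No gene of the 8 passed by edgeR in Fd5-5, HpoC or HpoN+PH, where 4.47%, 3.82% and 4.84% of all genes did. Unadjusted p was under 0.05 for 2 of them in Fd5-5, 1 in HpoC and 1 in HpoN+PH, and DESeq2 called 1 in each. All 5 mutants share the same 2 WT libraries. In these bulk samples fewer hemocytes and less of a transcript per hemocyte cannot be told apart.

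**Figure D1:**
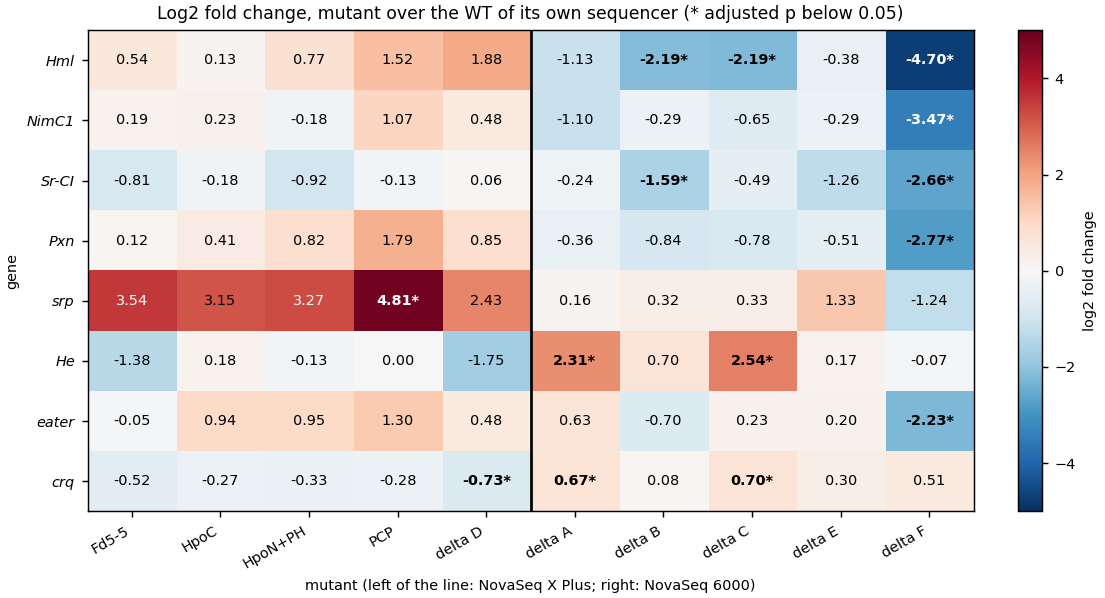
Log2 fold changes of the 8 hemocyte genes (rows) in the 10 mutants (columns), each over the WT of its own sequencer; a star marks an adjusted p below 0.05 by edgeR. The delta F column is the darkest blue, down to −4.70 for Hml, and the srp row is red in all 5 mutants of the X Plus, up to 4.81 in PCP.

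Serpent, the GATA transcription factor needed to form hemocytes and also the fat body, was low in WT on the X Plus. It had 4.73 and 6.81 CPM in Fd5-5, 6.71, 6.21, 2.57, 2.34 and 4.08 CPM in HpoC, and 5.31, 3.57, 4.07 and 6.23 CPM in HpoN+PH, against 0.410 and 0.574 CPM in WT. In PCP it had 10.5, 18.7, 25.3, 14.3 and 0.757 CPM, and in delta D 2.55, 0.595 and 4.85 CPM. All 19 mutant libraries lay above both WT libraries, which held 16 and 15 reads of srp. The lowest of them, delta D 2 and PCP 5, were close to WT. The log2 fold change was 4.81 ± 1.09 (SE) in PCP (edgeR adjusted p = 0.0159), 3.54 in Fd5-5 (0.0733), 3.27 in HpoN+PH (0.075), 3.15 in HpoC (0.105) and 2.43 in delta D (0.0715). Without the out-of-place libraries all 5 passed, between 2.46 in delta D and 5.34 in PCP. In PCP the change was 4.59 (adjusted p = 0.241) without WT 1 and 5.07 (adjusted p = 0.266) without WT 2, so that the call needs both. Both WT libraries and PCP 5 lie above 3% ribosomal RNA and the other 4 PCP libraries below it. With the share as a term (above or below 3%) the change was 3.68 (adjusted p = 0.069). PCP 5 alone against WT gave 0.65, and it is out of place. With only libraries above 3%, as in WT, srp was higher in HpoC by 2.65 on the log2 scale (edgeR adjusted p = 0.000807). The 1 such library of HpoN+PH, out of place, gave 3.48. Fd5-5 and delta D had no such library.

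On the 6000 srp did not separate the mutants from WT in the same way. It had 8.67, 6.67, 8.39 and 1.54 CPM in delta E and 0.895, 1.30 and 1.13 CPM in delta F, against 2.10, 1.64 and 3.77 CPM in WT. Delta F lay below WT without overlap, and 3 of 4 delta E libraries lay above WT. Delta E 4 lay above every delta F library and just below the lowest WT library. Neither passed, with a log2 fold change of 1.33 in delta E (edgeR adjusted p = 0.211) and −1.24 in delta F (0.102). In rising order the mutant means of srp were delta F 1.11 ± 0.205, delta D 2.67 ± 2.13, delta A 2.85 ± 2.29, delta B 3.18 ± 0.779, delta C 3.21 ± 1.48, HpoC 4.38 ± 2.02, HpoN+PH 4.80 ± 1.21, Fd5-5 5.77 ± 1.47, delta E 6.32 ± 3.30 and PCP 13.9 ± 9.19 CPM (SD). WT stood at 0.492 ± 0.116 CPM on the X Plus, below them all, and at 2.50 ± 1.12 CPM on the 6000, between delta F and delta D. Only WT on the X Plus with delta F, and delta F with WT on the 6000, were neighbours whose libraries did not overlap.

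**Figure D2:**
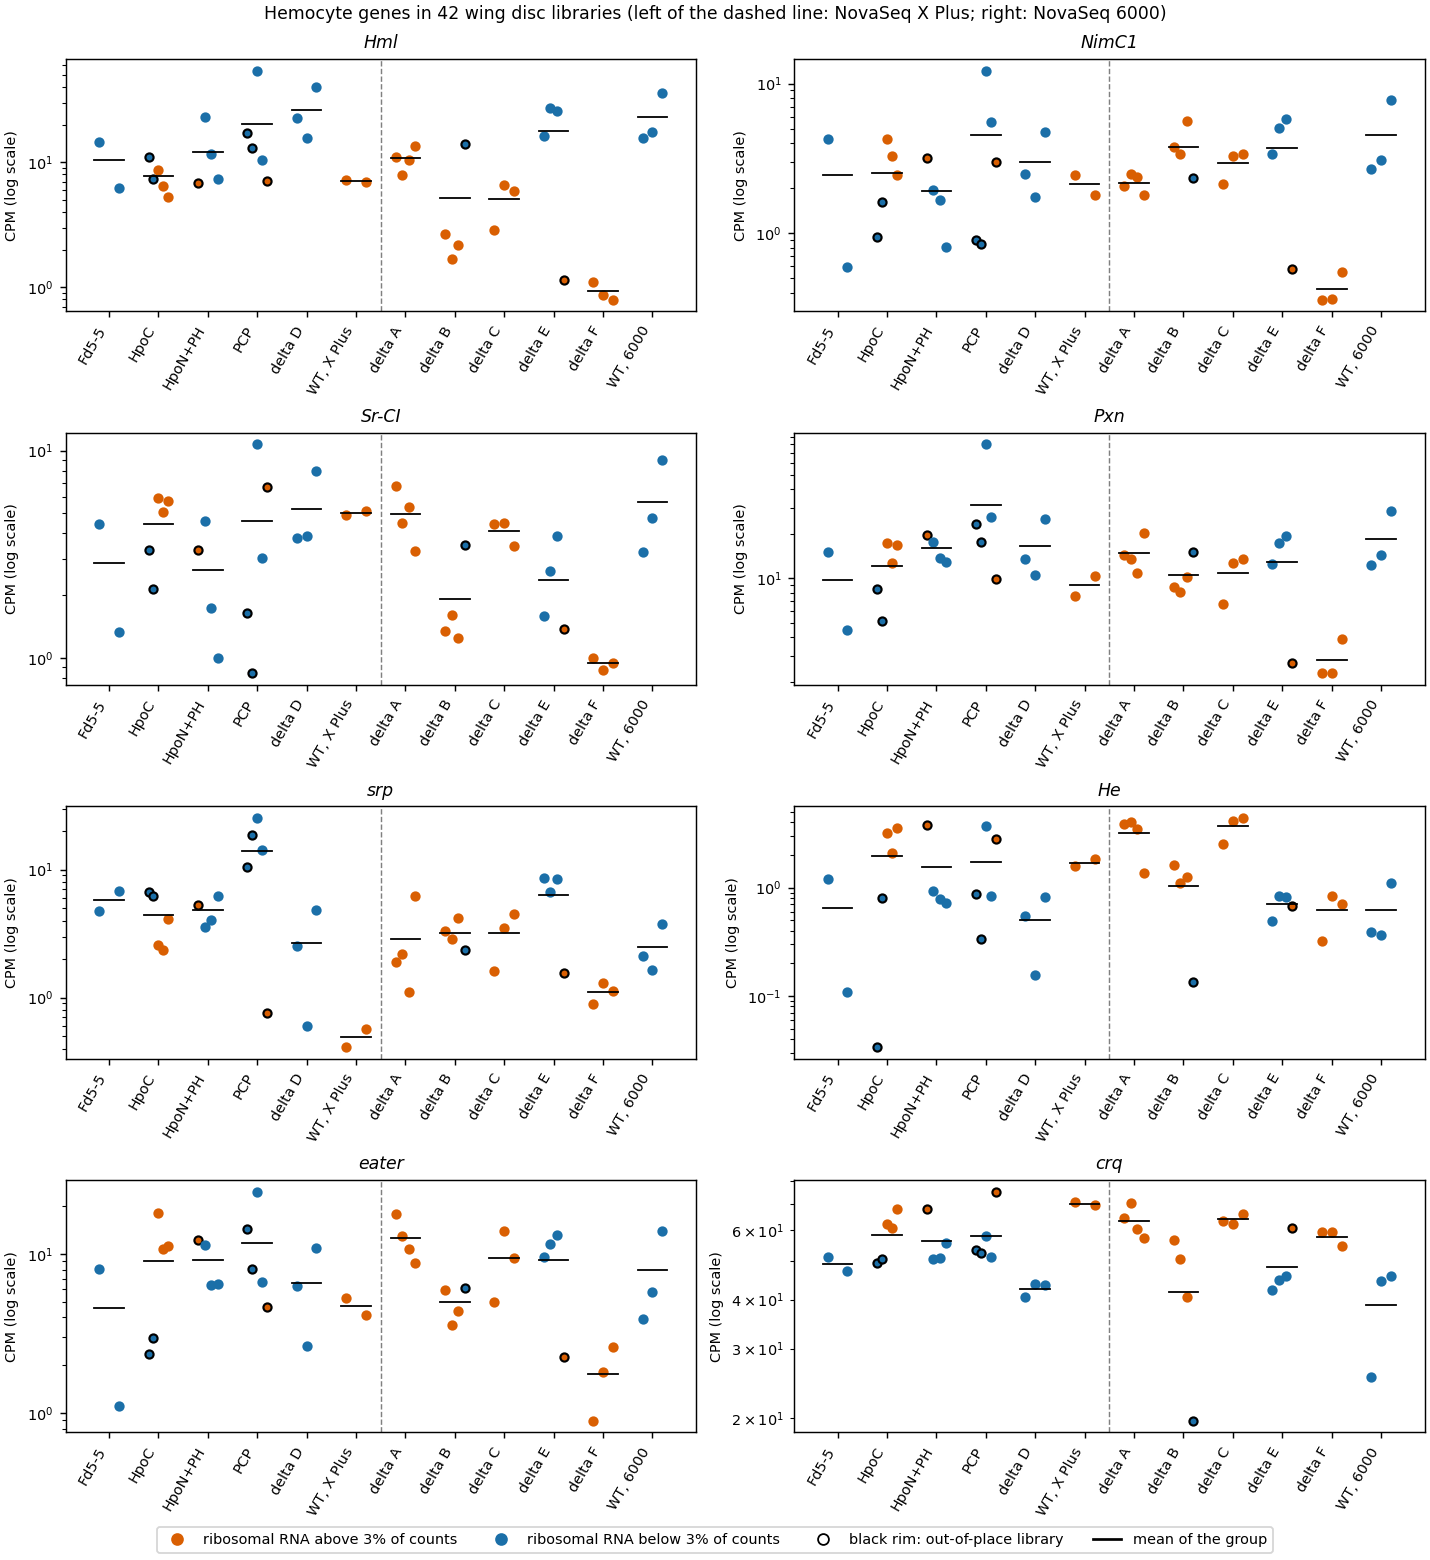
Level of each hemocyte gene in CPM (vertical axis, log scale, 1 panel a gene) in every library of the 12 groups; bars are group means, colours give the ribosomal RNA share, black rims the 8 out-of-place libraries, and the dashed line parts the sequencers. PCP 3 tops 6 of the panels, delta F sits lowest for Hml, NimC1, Sr-CI, Pxn and eater, and the orange points of crq lie above the blue ones on the X Plus.

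Hemese, a glycosylated transmembrane protein found on the surface of larval hemocytes, rose in delta A and delta C. It had 3.85, 4.05, 3.47 and 1.36 CPM in delta A and 2.50, 4.15 and 4.39 CPM in delta C, against 0.385, 0.369 and 1.10 CPM in WT. Every library of both mutants was above every WT library. The log2 fold change was 2.31 ± 0.631 in delta A (SE; edgeR adjusted p = 0.00623) and 2.54 ± 0.657 in delta C (adjusted p = 0.00293), and both passed whichever library was left out. Delta B had 1.61, 1.10, 1.25 and 0.135 CPM, delta E 0.489, 0.830, 0.825 and 0.672 CPM, and delta F 0.322, 0.834 and 0.702 CPM. These 3 overlapped WT, and in delta B the library delta B 4, with 3 reads, was apart from the others.

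He was among the genes that differed with the ribosomal RNA share within a label. On the X Plus it had 1.56 to 3.80 CPM in the 7 libraries above 3% and 0.0337 to 3.68 CPM (median 0.798) in the 14 below it. The share was then entered in the model as a term, above or below 3%. With it the log2 fold change of He was 1.05 in delta A (edgeR adjusted p = 0.564) and 1.27 in delta C (0.421). That term rests on delta B 4 and delta E 4 alone on the 6000. In rising order the mutant means of He were delta D 0.507 ± 0.331, delta F 0.619 ± 0.266, Fd5-5 0.653 ± 0.771, delta E 0.704 ± 0.161, delta B 1.02 ± 0.631, HpoN+PH 1.56 ± 1.497, PCP 1.71 ± 1.46, HpoC 1.94 ± 1.52, delta A 3.18 ± 1.24 and delta C 3.68 ± 1.03 CPM (SD). WT was at 1.70 ± 0.192 CPM on the X Plus, between HpoN+PH and PCP, and at 0.617 ± 0.416 CPM on the 6000, between delta D and delta F. All neighbours in this order overlapped. Counts of He were small, from 1 read in HpoC 1 to 134 in delta C 3.

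NimC1, an EGF-repeat receptor of the Nimrod family by which plasmatocytes take up bacteria, fell in delta F. It had 0.358, 0.362 and 0.550 CPM in delta F, against 2.69, 3.09 and 7.79 CPM in WT. The groups did not overlap, and the delta F libraries held 10, 10 and 18 reads of the gene. The log2 fold change was −3.47 ± 0.646 (SE; edgeR adjusted p = 0.00265). No other mutant passed, and those of the 6000 had log2 fold changes between −1.10 in delta A and −0.29 in delta B and delta E. On the X Plus PCP 3 and PCP 4 had 12.2 and 5.56 CPM, while PCP 1, PCP 2 and PCP 5 had 0.901, 0.840 and 2.97 CPM, against 2.46 and 1.798 CPM in WT. The PCP libraries lay on both sides of WT. The mutant means of NimC1 ran upward from delta F at 0.423 ± 0.109 over HpoN+PH 1.90 ± 0.975, delta A 2.17 ± 0.304, Fd5-5 2.44 ± 2.61, HpoC 2.51 ± 1.31, delta C 2.94 ± 0.711, delta D 2.998 ± 1.56, delta E 3.69 ± 2.30, delta B 3.77 ± 1.35 and PCP 4.496 ± 4.72 CPM (SD). WT was at 2.13 ± 0.469 CPM on the X Plus, between HpoN+PH and delta A, and at 4.52 ± 2.83 CPM on the 6000, above PCP. Delta F and HpoN+PH were the only neighbours without overlap.

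Eater, another EGF-repeat receptor for bacteria that also holds hemocytes in their sessile patches under the cuticle, fell in delta F as well. It had 0.895, 1.81 and 2.60 CPM in delta F, against 3.89, 5.81 and 14.0 CPM in WT. The groups did not overlap, with a log2 fold change of −2.23 ± 0.601 (SE; edgeR adjusted p = 0.0059). Delta A, at 17.9, 13.01, 10.7 and 8.78 CPM, had the highest mean of the 12 groups but overlapped WT (log2 fold change 0.63, adjusted p = 0.323). Within HpoC the 3 libraries above 3% ribosomal RNA had 18.01, 10.8 and 11.3 CPM and the 2 below it, both out of place, had 2.36 and 2.98 CPM, against 5.31 and 4.13 CPM in WT. With only libraries above 3%, as in WT on that sequencer, eater was higher in HpoC by 1.54 on the log2 scale (adjusted p = 0.00182); the 1 such library of HpoN+PH, out of place, had 12.3 CPM. The mutant means of eater ran upward from delta F at 1.77 ± 0.851 over Fd5-5 4.59 ± 4.91, delta B 4.98 ± 1.22, delta D 6.62 ± 4.11, HpoC 9.09 ± 6.52, delta E 9.13 ± 4.82, HpoN+PH 9.16 ± 3.16, delta C 9.48 ± 4.45 and PCP 11.7 ± 8.14 to delta A 12.6 ± 3.91 CPM (SD). WT was at 4.72 ± 0.832 CPM on the X Plus, between Fd5-5 and delta B, and at 7.90 ± 5.37 CPM on the 6000, between delta D and HpoC. All neighbours overlapped.

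Sr-CI, a class C scavenger receptor that binds bacteria, fell in delta F and in delta B. It had 1.003, 0.870 and 0.947 CPM in delta F and 1.34, 1.61, 1.25 and 3.51 CPM in delta B, against 3.25, 4.71 and 8.99 CPM in WT. Delta F did not overlap WT; in delta B 3 libraries lay below WT and delta B 4 within it. The log2 fold change was −2.66 ± 0.490 in delta F (SE; edgeR adjusted p = 0.00265) and −1.59 ± 0.428 in delta B (adjusted p = 0.0191). In delta F the call held whichever library was left out. In delta B it was lost without any of delta B 1, delta B 2, delta B 3, WT 2 and WT 3, with adjusted p between 0.0538 and 0.105, and without delta B 4 the change was −2.04 (adjusted p = 0.000868). With the ribosomal RNA share as a term it was −0.82 (adjusted p = 0.597), and delta B 4 alone, which lies below 3% like WT, gave −0.70. Delta E, at 1.59, 2.62, 3.88 and 1.38 CPM, also lay partly below WT, with −1.26 on the log2 scale (adjusted p = 0.0995). The mutant means of Sr-CI ran upward from delta F at 0.940 ± 0.0668 over delta B 1.93 ± 1.07, delta E 2.37 ± 1.14, HpoN+PH 2.66 ± 1.60, Fd5-5 2.87 ± 2.17, delta C 4.11 ± 0.558, HpoC 4.41 ± 1.63, PCP 4.58 ± 4.10 and delta A 4.94 ± 1.45 to delta D 5.21 ± 2.39 CPM (SD). WT was at 4.99 ± 0.134 CPM on the X Plus, between delta A and delta D, and at 5.65 ± 2.98 CPM on the 6000, above delta D. Delta F and delta B were the only neighbours without overlap.

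Croquemort, a CD36-family receptor for apoptotic cells, differed with the ribosomal RNA share. On the X Plus it had 60.9 to 75.3 CPM in the 7 libraries above 3% and 40.5 to 58.2 CPM in the 14 below it, with no overlap. On the 6000 it had 40.7 to 70.5 CPM (median 60.1) in the 14 above and 19.6 to 46.0 CPM (median 44.7) in the 7 below. It passed in delta D, where it had 40.5, 43.7 and 43.6 CPM, against 70.7 and 69.8 CPM in WT. There all libraries of the mutant lay below 3% and both of WT above, and the log2 fold change was −0.73 ± 0.180 (SE; edgeR adjusted p = 0.0135). With the share as a term it was −0.34 and still passed (adjusted p = 0.0457). Crq also passed in delta A and delta C, by 0.67 ± 0.259 (adjusted p = 0.0353) and 0.70 ± 0.274 (adjusted p = 0.0332). It had 64.4, 70.5, 60.6 and 57.5 CPM in delta A and 63.5, 62.4 and 66.1 CPM in delta C, against 25.4, 44.7 and 46.0 CPM in WT. Every library of both mutants lay above WT. With the share as a term both changes turned, to −0.18 (adjusted p = 0.752) and −0.15 (adjusted p = 0.766). Without WT 1, the lowest library, they were 0.43 (adjusted p = 0.178) and 0.47 (adjusted p = 0.159). The mutant means of crq ran upward from delta B at 41.9 ± 16.3 over delta D 42.6 ± 1.79, delta E 48.4 ± 8.48, Fd5-5 49.3 ± 2.86, HpoN+PH 56.4 ± 7.98, delta F 57.9 ± 2.81, PCP 58.2 ± 9.93, HpoC 58.3 ± 7.90 and delta A 63.2 ± 5.58 to delta C 64.0 ± 1.89 CPM (SD). WT was at 70.2 ± 0.652 CPM on the X Plus, above delta C and not overlapping it, and at 38.7 ± 11.5 CPM on the 6000, below delta B; the other neighbours overlapped.

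Hemolectin, a very large secreted clotting factor related to von Willebrand factor and one of the most used plasmatocyte markers, fell furthest in delta F. It had 1.11, 0.870 and 0.794 CPM in delta F, against 15.6, 17.5 and 35.7 CPM in WT. The log2 fold change was −4.70 ± 0.962 (SE; edgeR adjusted p = 0.00271). Hml also fell in delta B, which had 2.68, 1.68, 2.20 and 14.1 CPM, by 2.19 ± 0.768 on the log2 scale (adjusted p = 0.0402), and in delta C, which had 2.88, 6.62 and 5.86 CPM, by 2.19 ± 0.847 (adjusted p = 0.0306). All 3 groups lay below WT without overlap, and delta B 4 was close to the lowest WT library. The call in delta B was lost when any library except delta B 4 was left out, with adjusted p between 0.0553 and 0.144. The call in delta C was lost without WT 3 or any delta C library, with adjusted p between 0.0524 and 0.115. Without delta B 4 the change in delta B was −3.43 (adjusted p = 0.00117).

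The transcript of Hml, 11756 bases, is the longest of the 8, and its level also went with the ribosomal RNA share. On the 6000 it had 0.794 to 13.5 CPM in the 14 libraries above 3% and 14.1 to 35.7 CPM in the 7 below it, with no overlap. With a trend of each library with transcript length removed, the log2 fold change of Hml was −2.77 in delta F (adjusted p = 0.00289), −1.26 in delta B (0.0542) and −0.007 in delta C (0.993). With the share as a term it was −1.20 in delta F (adjusted p = 0.523) and −0.11 in delta B (0.992), and it turned to 1.31 in delta C (0.152) and to 2.37 in delta A (0.0312), where it had been −1.13 (0.203). The mutant means of Hml ran upward from delta F at 0.925 ± 0.165 over delta C 5.12 ± 1.98, delta B 5.16 ± 5.97, HpoC 7.78 ± 2.24, Fd5-5 10.4 ± 5.82, delta A 10.8 ± 2.28, HpoN+PH 12.2 ± 7.43, delta E 17.7 ± 12.0 and PCP 20.4 ± 19.3 to delta D 26.2 ± 12.8 CPM (SD). WT was at 7.08 ± 0.217 CPM on the X Plus, between delta B and HpoC, and at 22.9 ± 11.1 CPM on the 6000, between PCP and delta D. Delta F and delta C were the only neighbours without overlap.

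Peroxidasin, a peroxidase of the extracellular matrix that cross-links collagen IV in basement membranes, fell in delta F. It had 2.29, 2.28 and 3.88 CPM in delta F, against 12.3, 14.3 and 28.6 CPM in WT. The groups did not overlap, and the log2 fold change was −2.77 ± 0.558 (SE; edgeR adjusted p = 0.00271). In PCP it had 23.1, 17.4, 80.2, 25.9 and 9.93 CPM, against 7.64 and 10.4 CPM in WT. Of the PCP libraries 4 lay above WT, and the log2 fold change of 1.79 did not pass (adjusted p = 0.179). It was 2.55 (adjusted p = 0.00281) without the out-of-place libraries, which leaves PCP 3 and PCP 4. The mutant means of Pxn ran upward from delta F at 2.82 ± 0.918 over Fd5-5 9.82 ± 7.55, delta B 10.5 ± 3.21, delta C 10.9 ± 3.68, HpoC 12.1 ± 5.24, delta E 12.97 ± 7.46, delta A 14.7 ± 3.86, HpoN+PH 16.0 ± 3.18 and delta D 16.4 ± 7.76 to PCP 31.3 ± 28.0 CPM (SD). WT was at 9.02 ± 1.95 CPM on the X Plus, between delta F and Fd5-5, and at 18.4 ± 8.87 CPM on the 6000, between delta D and PCP. Delta F and WT on the X Plus were the only neighbours without overlap.

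The 5 falls in delta F passed whichever single library was left out, with log2 fold changes from −4.92 to −1.52, and with the length trend removed they lay between −3.15 for NimC1 and −1.59 for Pxn, all past the threshold. None passed with the ribosomal RNA share as a term, where they lay between −2.42 for NimC1 and −0.83 for eater with adjusted p from 0.313 to 0.785. The 10 libraries of delta A, delta B and delta C above 3% were set beside them. In them NimC1 had 1.7998 to 5.58 CPM, Pxn 6.72 to 20.1 CPM, eater 3.57 to 17.9 CPM, Sr-CI 1.25 to 6.72 CPM and Hml 1.68 to 13.5 CPM, so that every one lay above all 3 delta F libraries for each of the 5 genes. Delta E 4, which is out of place and was nearest to delta F over all genes (mean Spearman rho 0.991, against 0.922 with its own label), had 0.571 CPM of NimC1, 2.69 of Pxn, 2.25 of eater, 1.38 of Sr-CI and 1.14 of Hml. The other 3 delta E libraries had 3.39 to 5.75, 12.4 to 19.4, 9.56 to 13.2, 1.59 to 3.88 and 16.4 to 27.3 CPM. He and crq did not fall in delta F: He had a log2 fold change of −0.07 (edgeR adjusted p = 0.936) and crq of 0.51 (0.12).

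**Figure D3:**
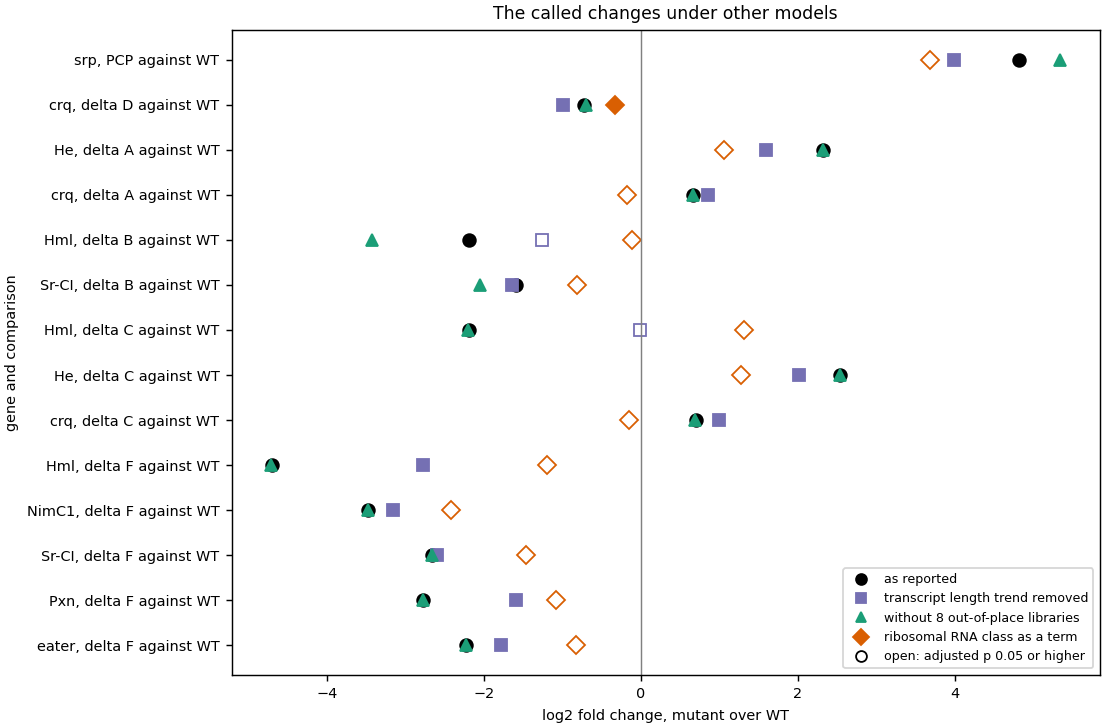
Log2 fold change of the 14 called changes (1 line each), mutant over WT, as reported and under 3 other models; open symbols have an adjusted p of 0.05 or higher. The delta F falls stay left of 0 under all 4, and with the ribosomal RNA share as a term only crq in delta D keeps its call.

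Within the 5 labels that hold libraries of both kinds, the members split by direction. The log2 level above 3% minus that below it averaged 1.93 for He and 0.59 for crq, 0.18 for Sr-CI and 0.11 for NimC1, −0.23 for eater, −0.66 for Pxn, −1.40 for srp and −1.92 for Hml. He, with a transcript of 673 bases, and Hml, with 11756 bases, stood at the ends. The difference was below 0 in all 5 labels for Hml, above 0 in all 5 for crq and in 4 of 5 for He, where delta E gave −0.05. For NimC1, Sr-CI, Pxn, srp and eater the labels gave both signs. In all 5 labels one of the kinds is made up of out-of-place libraries, and the part of the share itself in these differences was not tested.

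**Figure D4:**
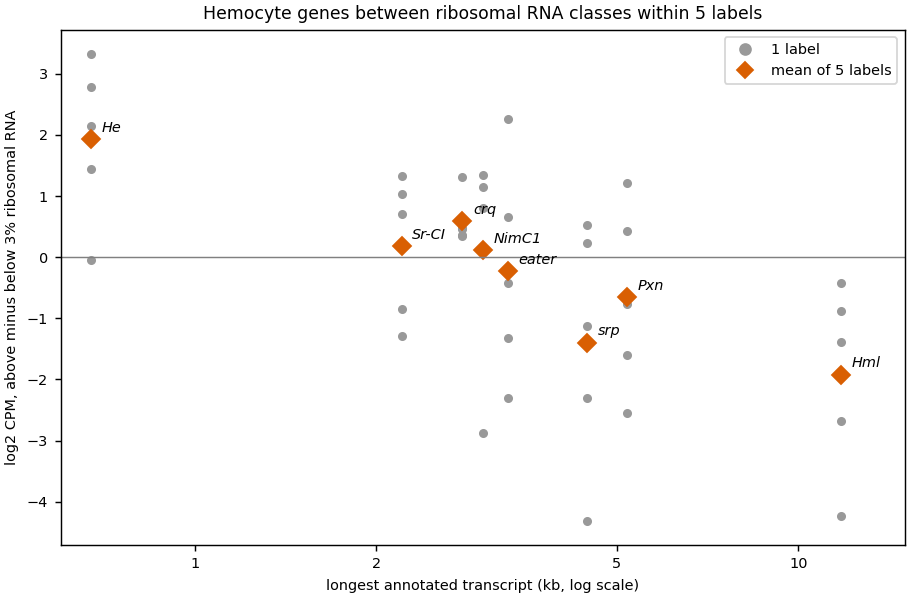
Difference in log2 CPM between libraries above and below 3% ribosomal RNA (vertical axis) against the longest transcript in kilobases (horizontal, log scale) for the 8 genes; grey points are single labels, diamonds the mean of 5. The mean runs from 1.93 for He to −1.92 for Hml.

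The WT groups of the sequencers also differed from each other. In WT on the X Plus, against WT on the 6000, crq was higher by 0.86 on the log2 scale (edgeR adjusted p = 0.0179), the only one of the 8 to pass, where 24.7% of 11294 genes passed and 13.7% as higher. Of the others, srp was at −2.35 (adjusted p = 0.0549), Hml at −1.69, NimC1 at −1.08, Pxn at −1.03, eater at −0.74, Sr-CI at −0.18 and He at 1.45. For 6 of the 8 genes the WT groups, of 2 and 3 libraries, did not overlap. How many of all genes did so was not counted.

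Most pairs among Hml, NimC1, Sr-CI, Pxn, He and eater varied together from library to library, with Hml and He at −0.03 as an exception. With the mean of each group subtracted from log2 CPM, Spearman's rho over 42 libraries was 0.86 for Pxn with eater, 0.74 for NimC1 with Pxn, 0.71 for NimC1 with eater, 0.68 for NimC1 with He and 0.67 for Hml with Pxn. Of the 28 pairs 23 were above 0, with a median of 0.38 and a range from −0.40 for Hml with crq to 0.86. The median rho of a member with all genes lay between −0.018 for Hml and 0.015 for He. Among 11293 genes eater ranked 1 for Pxn, and for NimC1 Pxn ranked 5 and eater 10. For Hml Pxn ranked 28, but Sr-CI 2454 and NimC1 2863, and for He Pxn ranked 2532. Many genes outside the list thus went with Hml or He more closely than these members did. Without crq the median of 21 pairs was 0.53. The 7 pairs of crq had a median of 0.17, from −0.40 with Hml to 0.67 with He. Srp was at 0.35 with Hml and with Pxn, and at −0.24 with Sr-CI. The libraries of a group share their label, and the ribosomal RNA share differs within 5 groups, so the same relations were taken within each kind. In 20 libraries below 3% (groups with at least 2 such libraries) the median was 0.60 and 27 of 28 pairs were above 0, with 0.88 for NimC1 with Sr-CI, 0.86 for Sr-CI with Pxn and for Hml with eater, and 0.83 for Hml with Pxn. In 18 libraries above 3% the median was 0.14 and 18 of 28 pairs were above 0. There Sr-CI with srp stood at −0.59, and Pxn with srp at 0.77. Without the 8 out-of-place libraries the median was 0.55 over 34 libraries.

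**Figure D5:**
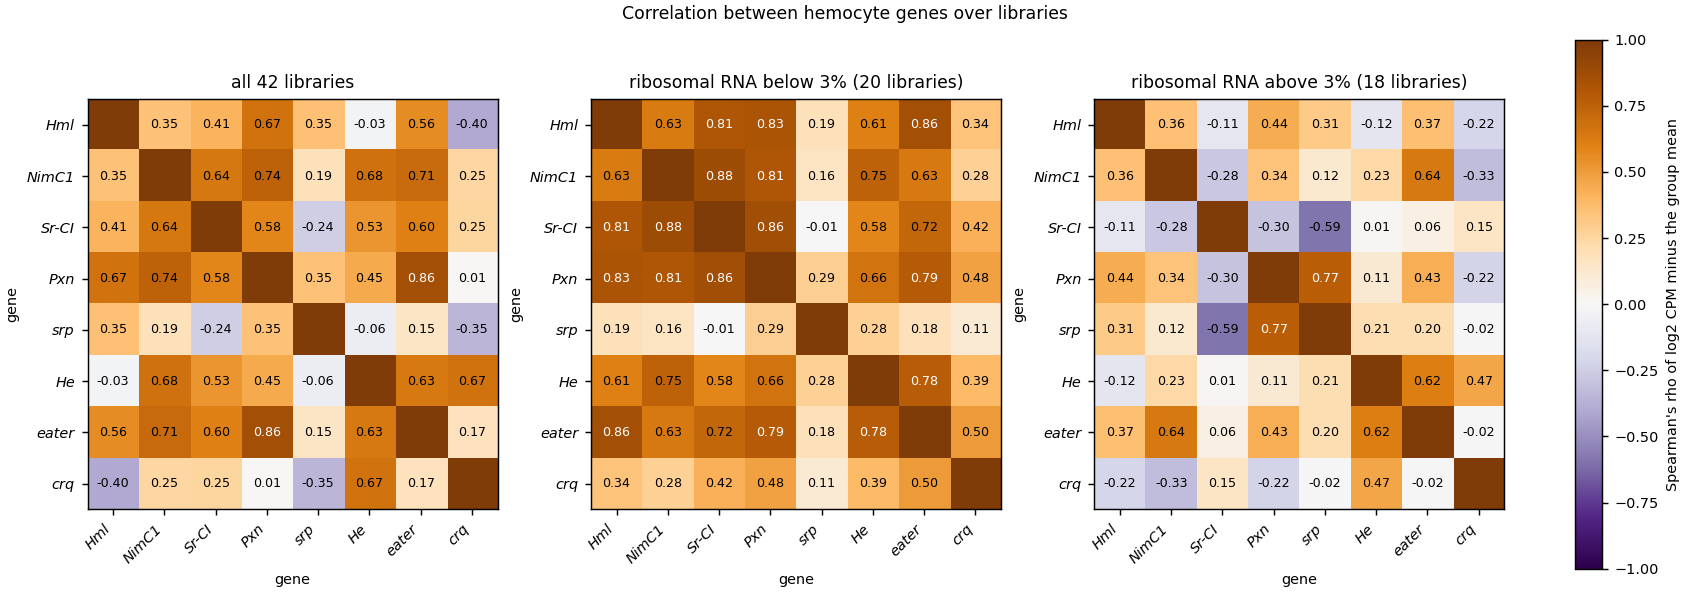
Spearman's rho between the 8 genes over all 42 libraries and over the 20 below and 18 above 3% ribosomal RNA, on log2 CPM minus the group mean. Below 3% nearly all cells are brown (median 0.60), above 3% the cells are mixed (median 0.14), and crq with Hml is at −0.40 over all libraries.

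The level of crq ran against that of ex, the gene that overlaps it on the other strand. Over 42 libraries the rho was −0.70, and it was −0.83 on the X Plus. It was 0.07 within the 20 libraries below 3%, −0.22 within the 18 above it, and 0.009 over the 34 libraries that remain without those out of place. For He with NimB5, Pxn with CG16986 and srp with lncRNA:CR44133 the rho was −0.11, −0.07 and 0.40.

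The genes nearest to each member over the 42 libraries differed between members. He had NtR at 0.87, lectin-24Db at 0.86 and CG4259 at 0.85. NimC1 had NtR at 0.81, the angiotensin-converting enzyme relative Ance-5 at 0.79 and CG4950 at 0.77. Pxn had Ance-5 at 0.85, CG1092 at 0.74 and the acetylcholine receptor subunit nAChRbeta3 at 0.71, and eater had CG33465 at 0.84, nAChRbeta3 at 0.80 and NtR at 0.79. The nearest to Sr-CI were CG15212 at 0.75, CG34038 at 0.73 and Ance-5 at 0.73, and those to Hml were lncRNA:CR45921 at 0.74, dsx at 0.71 and msi at 0.71. The transcription factor zfh1, itself known in hemocytes, was at 0.79 with srp, beside CG32103 at 0.79 and the planar polarity gene pk at 0.79. Crq had none of these: CG31360, CG10465 and O-fut1, which adds fucose to Notch, were at 0.90 each. By the mean of rho over the 8 members, NtR (0.56), Ance-5 (0.55), nAChRbeta3 (0.54), CG1092 (0.54), CG33465 (0.52) and CG4950 (0.52) led 11286 other genes, followed by mthl2, Hexo2, lectin-24Db and CG4259.

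Regulators of hemocytes were set beside the members, 7 of 9 listed genes being tested. In mutants of the X Plus ush, the cofactor of GATA factors, rose in Fd5-5 (log2 fold change 1.79, edgeR adjusted p = 0.0391), HpoN+PH (1.55, 0.0455), PCP (1.72, 0.0285) and delta D (1.90, 0.0115). In the same comparisons zfh1 rose in HpoN+PH (2.84, 0.00848), PCP (2.69, 0.0117) and delta D (1.99, 0.0282). These calls share the WT libraries in which srp was low, and ush and zfh1 were also lower in WT on the X Plus than in WT on the 6000, by −1.81 (0.0126) and −1.82 (0.0256). On the 6000 Pvr, the receptor of growth factors that hemocytes follow and survive on, fell in delta A by 1.32 (0.0049), in delta C by 2.10 (0.000324) and in delta F by 1.53 (0.00406). Of the 7, 3 fell and none rose in delta A, where 2902 of 10338 genes fell. In delta C 3 fell and 2 rose, where 32.0% and 33.8% of genes did. In delta B 2 rose and none fell, where 2009 genes rose. The summed regulator level had a median of 135 CPM above 3% ribosomal RNA and 293 CPM below it. The part of the share in these calls was not tested. In delta F Pvr and no other regulator fell, and Pvf2, one of its ligands, rose by 0.99 (0.00468); the median of the 7 was −0.06, against −0.03 over all genes.

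Other receptors related to the members gave mixed results. Of 9 tested Nimrod and phagocytosis receptors 2 fell in delta F, where 28.5% of all genes did, NimB4 by 1.36 (edgeR adjusted p = 0.00742) and NimB1 by 2.05 (0.0395), with a median of −0.39. In delta A, where 30.4% of all genes rose, 6 of the 9 rose and 1 fell, led by NimB2 at 4.83 (0.000582), NimB3 at 7.76 (0.00166), NimC2 at 7.39 (0.00319) and NimB4 at 1.37 (0.00523), with a median of 3.44; NimC1, of the same cluster, was at −1.10 there and did not pass. The summed level of these receptors had a rho of 0.76 with srp over 42 libraries, and between −0.43 and 0.32 with the other members. The single tested relative of Sr-CI, Sr-CIV, fell in delta F (edgeR adjusted p = 0.00206), with 0 to 0.0362 CPM in delta F, against 0.513 to 9.88 CPM in WT. Of 7 tested CD36 family relatives of crq none rose in delta F and 2 fell, Snmp2 by 2.41 (0.00323) and Snmp1 by 2.03 (0.0495).

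All 7 fat body markers rose in delta A, where 30.4% of all genes rose. Their summed level was 669 to 15476 CPM in delta A, against 14.0 to 26.9 CPM in WT. All 7 salivary gland and 11 of 12 muscle markers also rose in delta A. In delta F 2 of the 7 fat body markers fell, close to the 28.5% of all genes that did. The fat body sum was 2.50 to 3.81 CPM in delta F, against 14.0 to 26.9 CPM in WT. On the X Plus no fat body marker passed in any mutant, but the sums differed widely between libraries. They were 710 to 11043.5 CPM in Fd5-5, 3.26 to 11046 CPM in HpoC and 23.0 to 14261.5 CPM in PCP. In HpoN+PH they were 5.04 to 483 CPM and in delta D 17.0 to 111 CPM, against 43.3 to 58.5 CPM in WT. None of the fat body markers was at 0 in all libraries. Their part in the levels of srp and the other members was not tested; the rho of their summed level was 0.53 with srp, 0.25 with Hml, −0.53 with He and −0.67 with crq.

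Genes of the basement membrane that hemocytes and fat body secrete, such as laminins, collagen IV and perlecan, fell along with the members in delta F. There 9 of 11 tested genes fell and 2 rose, with a median of −1.89, where 28.5% of all genes fell and 2912 of 10338 rose. The falls were led by LanB1 at −2.23 (edgeR adjusted p = 0.00283), LanA at −2.20 (0.00436), LanB2 at −1.89 (0.00553) and trol, which encodes perlecan, at −2.29 (0.00566). Their summed level was 744 to 789 CPM in delta F, against 2715 to 2893 CPM in WT. In delta C 8 fell and 2 rose, where 32.0% and 33.8% of all genes did, and the sum was 547 to 677 CPM. The sum also moved with the ribosomal RNA share: it was 547 to 2103 CPM in the 21 libraries above 3%, delta F and delta C among them, and 2495 to 4159 CPM in the 21 below it, WT of the 6000 among them. Within labels it was 752 CPM in delta E 4 and 3057 to 3640 CPM in the other delta E libraries, and 871 to 968 CPM in delta B 1 to 3 and 2495 CPM in delta B 4. The part of the share in the fall was not tested. Disc epithelium makes some of these proteins as well. All 4 tracheal markers and 5 of 8 disc epithelium markers also fell in delta F, where 28.5% of all genes did. Genes outside blood cells thus fell there as well. Over 42 libraries the summed level had a rho of 0.65 with Hml and 0.61 with srp, −0.02 with eater and −0.76 with crq.

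Crystal cells and lamellocytes are the rarer blood cell types. The listed crystal cell gene lz reached at most 0.265 CPM, before TMM scaling, in any library and was not tested. Of the 3 tested crystal cell genes, the prophenoloxidases PPO1 and PPO2 rose in delta A by 2.58 (edgeR adjusted p = 0.00224) and 2.51 (0.00467), in delta C by 2.91 (0.000602) and 2.80 (0.00178) and in delta E by 2.88 (0.0078) and 2.56 (0.0291). In delta D they fell by 4.75 (0.013) and 4.53 (0.0176), against a WT in which they were higher than in WT on the 6000 by 4.01 (0.00536) and 3.64 (0.0119). All 3 tested genes rose in delta A and delta E, and 2 in delta C. Of all genes 30.4% rose in delta A, 298 of 10338 in delta E and 33.8% in delta C, and 15.3% fell in delta D. In delta F none of the 3 passed. The summed crystal cell level had a median of 127 CPM above 3% ribosomal RNA and 34.7 CPM below it. Within delta E it was 43.7 CPM in the library above 3% and 124 to 207 CPM in those below. The part of the share was not tested. The rho of the summed crystal cell level was 0.63 with He, 0.60 with Sr-CI, 0.55 with NimC1, 0.53 with eater and 0.43 with Pxn over 42 libraries, 0.24 with crq, 0.05 with Hml and −0.24 with srp. Lamellocytes, the flat cells formed after wasp attack, gave weak signals: their 3 markers summed to 3.18 to 9.01 CPM in all 42 libraries.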

How the data were processed

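Total RNA of wing discs (10 ng per library, 12 to 15 PCR cycles, paired reads of 150 bases) was sequenced per the labels' protocols. Values in the deposited table are estimated counts, not normalized; per the submitters' processing notes the authors used Trimmomatic 0.33, FastQC 0.10, Salmon 1.80, dm6 and edgeR. Strand settings are not given in the sources used here. Of the values, 24.6% were not whole, and all were rounded. Of 17208 gene IDs, 17083 matched a release 6 annotation, which gave positions and transcript lengths.

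Each mutant was compared with the WT of its sequencer by edgeR 4.0.16 in R 4.3.3 (quasi-likelihood test, TMM scaling, filterByExpr, Benjamini-Hochberg adjustment over all genes tested, threshold 0.05), in 1 fit per sequencer (10775 and 10338 genes, 15 residual degrees of freedom each), and the WT groups in a fit of all 42 libraries (11294 genes). Biological coefficients of variation were 49.2%, 39.4% and 45.5%. Log2 levels for correlations use a prior count of 2 and have group means subtracted. Means carry the SD over libraries. The scripts were tested on simulated data. PCR copies are counted as reads and are not independent molecules.

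Same replicate numbers did not pair libraries (0 of 21 pairs of groups), so no block was used. Alternatives were DESeq2 size factors, DESeq2 1.42.0, no filter, a replicate block, a fit of 2 groups, the ribosomal RNA class (46 genes, limit 3%) as a term or held to that of WT, omission of the 8 out-of-place libraries or of single libraries, and, added after seeing the data, removal of a length trend (loess, span 0.3). The members, lists and out-of-place libraries were chosen with earlier results of these data known. Named besides the members are, per list and comparison, up to 4 genes of smallest p, and the genes of highest rho.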

Additional observations from a re-analysis of the deposited data

Results flagged for a closer look

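In 6 of 48 tests of a gene within a group of at least 4 libraries, 1 library stood far from the others by Dixon's test, where about 1 in 20 (2.4) is due to chance; 4 of the 6 are in out-of-place libraries. PCP 3 had 54.22 CPM of Hml, where the other PCP libraries had 7.13 to 17.1 CPM, and 80.2 CPM of Pxn, where they had 9.93 to 25.9 CPM. This library is not among those out of place, and it was also the highest of all 42 for NimC1, Sr-CI, srp and eater. Delta B 4 had 14.1 CPM of Hml, where the other delta B libraries had 1.68 to 2.68 CPM, and 3.513 CPM of Sr-CI, where they had 1.25 to 1.61 CPM. It is the only delta B library below 3% ribosomal RNA and was nearest to WT over all genes. HpoN+PH 1 had 3.801 CPM of He, where the other 3 had 0.717 to 0.927 CPM, and it is the only one of its label above 3%. PCP 5 had 75.33 CPM of crq, where the other 4 had 51.4 to 58.2 CPM, and it is likewise the only one of its label above 3%. Whether the ribosomal RNA share accounts for these values was not tested.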

How the results depend on the processing

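Of 1176 gene-level values under other settings, 1077 kept their side of the threshold, 46 passed where they had not and 48 lost a call. The other 5 turned in direction with a call in at least 1 of the 2 fits. Changes of direction without a call in either fit were not counted apart and are among the 1077. With the class of ribosomal RNA as a term, Hml in delta A turned to 2.37 and in delta C to 1.31, and crq in delta A to −0.18 and in delta C to −0.15; with the class of WT alone, He in HpoN+PH turned to 1.202. In HpoN+PH, PCP and delta B that setting leaves 1 mutant library, assumed to vary like the other groups. That term left 1 of 8 genes called in delta A and delta D and 0 in the other mutants, PCP, delta B, delta C and delta F included. With the class of WT alone 3 genes were called in HpoC, 4 in HpoN+PH, 1 in delta E and 0 in PCP and delta B. Without the 8 out-of-place libraries the counts were 2 in Fd5-5, 1 in HpoC, 2 in HpoN+PH, 5 in PCP, 3 in delta D, 4 in delta A and 1 in delta E. A fit of the 2 groups gave 2 in Fd5-5, 1 in HpoC, 1 in HpoN+PH, 0 in PCP, 4 in delta D, 4 in delta A and 0 in delta B, and DESeq2 gave 1 in Fd5-5, HpoC, HpoN+PH and delta E, 2 in PCP and 3 in delta D. No filter left 1 in delta A and 1 in delta B, and removal of the length trend 1 in delta B. The cause was not tested. The share of all genes called in each setting is not set beside these counts, so none of them can be called particular to the members. With 1 library left out, counts ran from 0 to 2 in PCP, 0 to 1 in delta D, 1 to 2 in delta A, 0 to 2 in delta B, 1 to 3 in delta C, 0 to 1 in delta E and 5 to 5 in delta F. The replicate block gave the same counts of members in all 10 mutants (5 in delta F) and changed no call of a member. Over all genes it called 720 in PCP, against 389 without it. The median correlation was 0.135 above 3%, 0.596 below it, 0.510 on the X Plus and 0.553 without the 8 libraries, against 0.381. Genes with few reads (He, NimC1 in delta F, srp in WT on the X Plus) are limited by depth. For the other labels no library of the class of WT exists, so that setting could not be fitted.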
